A study of Mus musculus with 10 samples.

Results

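The glycolysis and hypoxia response genes described here are 34 genes chosen by symbol from the deposited count table, which lists 55401 genes. They comprise the enzymes of glycolysis and of pyruvate use, 2 transporters, the subunits of the hypoxia-inducible factor (HIF) with the proteins that mark it for degradation, and 5 genes that hypoxia is known to induce. All 34 were found and all 34 passed the filter on low counts that left 14815 genes for testing. RNA was sequenced from meningeal lymphatic endothelial cells (LECs), sorted as CD45-CD31+PDPN+ cells from the dura mater of female C57BL/6 mice (C57BL/6J in the methods) aged 3 months. The groups were 5 replicates from non-stressed naive mice and 5 from mice after sub-chronic variable stress (SCVS), in which 3 stressors (foot shock, tail suspension and restraint) alternated over 6 days. Each replicate pooled cells from 3 to 4 animals, and the tissue of both groups was digested with actinomycin D present. The comparison of SCVS with naive mice asks which RNAs of these cells differ after short-term stress.

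Glycolysis splits glucose into pyruvate and yields ATP without oxygen. Lactate dehydrogenase turns pyruvate into lactate, which monocarboxylate transporters carry across the membrane. Endothelial cells are known to rely on glycolysis for much of their ATP even when oxygen is present. When oxygen is plentiful, prolyl hydroxylases mark HIF-alpha subunits for the von Hippel-Lindau protein and degradation. When oxygen falls, HIF-alpha pairs with ARNT, binds short DNA motifs with the core ACGTG or GCGTG and raises the transcription of many glycolytic genes.

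Among the 34 genes, Slc16a3, which encodes the lactate exporter MCT4, was the gene with the smallest p, and its level was lower after SCVS, at 0.548 ± 1.02 CPM (SD, n = 5) against 15.99 ± 8.32 in naive mice (SD, n = 5). CPM are counts per 1000000 counts of the library. No gene of the 34 had an adjusted p under 0.1, by the quasi-likelihood test of edgeR or by DESeq2. For the abundant enzymes Aldoa, Ldhb, Pkm, Ldha and Eno1 the log2 fold change between naive and SCVS mice was smaller than its standard error. HIF subunits Hif1a and Arnt had higher means after SCVS, with overlapping groups. Replicates of the same group also differed widely, and naive replicate 5 held Aldoa, Aldoc, Tpi1, Eno1 and Ldhb at the highest level of all 10 libraries.

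The promoters of 3 genes are printed to show the HIF core motif, Slc16a3 because the largest fold change concerned it, and Ldha and Bnip3 because they are well known HIF targets with 5 matches each. Sequences are the 250 bases before a RefSeq transcript start (GRCm38.p6), 5′ to 3′ on the strand of the gene, and capitals mark ACGTG or GCGTG on either strand (read as CACGT or CACGC on the other). Matches were counted on each strand and may overlap, so a CACGTG stretch counts once per strand and 1 capital stretch can hold several matches. The Slc16a3 window is chr11:120948817-120949066 on the + strand, the Ldha window chr7:46845554-46845803 on the + strand and the Bnip3 window chr7:138909507-138909756 on the - strand.
Slc16a3: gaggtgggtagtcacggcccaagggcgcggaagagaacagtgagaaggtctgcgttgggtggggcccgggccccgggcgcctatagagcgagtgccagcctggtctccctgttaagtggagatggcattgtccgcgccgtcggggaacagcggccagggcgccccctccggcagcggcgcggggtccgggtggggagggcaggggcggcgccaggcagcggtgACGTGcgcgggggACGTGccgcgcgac
Ldha: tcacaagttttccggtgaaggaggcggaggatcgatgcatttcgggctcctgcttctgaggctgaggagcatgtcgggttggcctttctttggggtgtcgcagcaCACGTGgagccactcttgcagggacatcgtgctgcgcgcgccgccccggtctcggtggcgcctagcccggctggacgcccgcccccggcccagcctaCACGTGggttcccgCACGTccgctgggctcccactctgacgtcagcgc
Bnip3: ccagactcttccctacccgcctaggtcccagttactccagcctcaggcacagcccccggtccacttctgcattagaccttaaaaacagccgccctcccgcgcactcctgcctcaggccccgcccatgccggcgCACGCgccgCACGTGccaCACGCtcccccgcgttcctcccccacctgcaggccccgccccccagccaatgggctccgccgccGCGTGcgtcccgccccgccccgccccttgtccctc
Of the 34 genes, 31 had at least 1 RefSeq promoter window, and 27 of those 31 (87.1%) held a match in at least 1 window. The same held for 6404 of the 10610 tested genes with a window (60.4%). Among single windows, 36 of 45 (80.0%) held a match for these genes and 12679 of 32851 (38.6%) in the whole RefSeq table. That table was not limited to tested genes, so these window shares are of unlike sets. Windows of the same gene can also overlap, as those of Eno1 do, so the same motif can be counted in several windows. Such a match describes the letters in the window and no binding was measured.

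Libraries were of similar depth, with 9984743 to 14094155 counts, and all depended on amplification, so a floor of 3 counts covers counting error only. The sort label was checked against 9 LEC markers, whose summed level ran from 74.4 to 2929 CPM in naive and from 471 to 3243 CPM in SCVS replicates. The sum of 8 blood endothelial markers was higher than that of the LEC markers in all 10 libraries, at 313 to 10273 CPM in naive and 5219 to 9324 CPM in SCVS replicates. Prox1, the transcription factor that defines LECs, had 0 counts in naive replicate 1 and 2 in SCVS replicate 5, and Lyve1 had 2 and 1 counts in naive replicates 1 and 5. Other LEC markers were present in these libraries. Naive replicate 5 had 843 counts of Prox1, and SCVS replicate 5 had 971 of Lyve1. Of the 9 markers, 5, 7 and 8 were above 3 counts in naive replicate 1, naive replicate 5 and SCVS replicate 5. Naive replicate 5 stood apart: 8 pan-endothelial markers summed to 595 CPM there and to at least 4253 CPM elsewhere, while 8 neuronal and glial markers summed to 3563 CPM, the highest of all libraries. In bulk RNA, fewer cells of a type and less RNA per cell cannot be told apart.

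**Figure D1:**
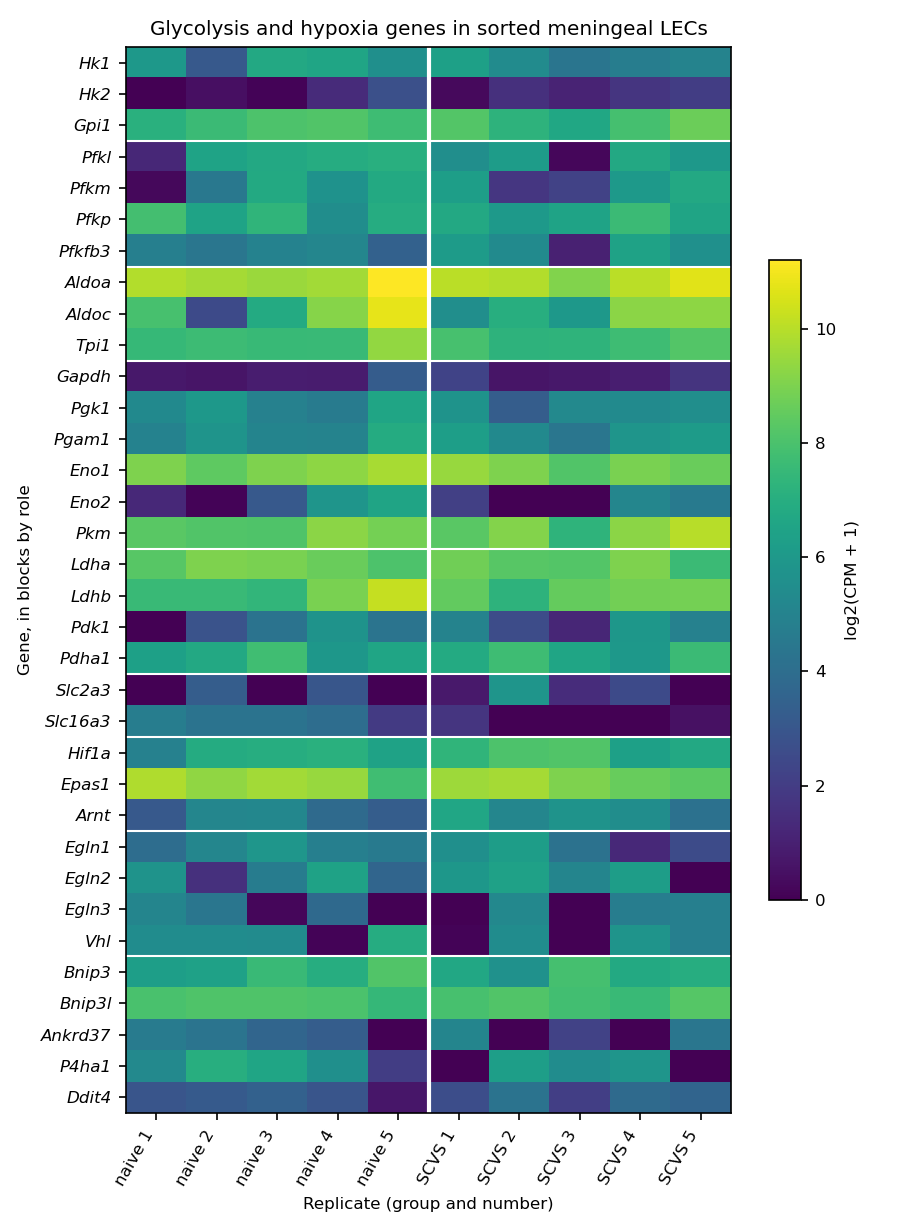
Log2(CPM + 1) of each of the 34 genes (rows, in blocks by role) in each of the 10 replicates (columns, naive left and SCVS right of the white line). Aldoa is bright throughout, Slc16a3 is at 0 in SCVS replicates 2, 3 and 4, and neither Gapdh nor Hk2 exceeds 8.70 CPM in any replicate.

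In a comparison of all tested genes, edgeR called 0 of 14815 (0.0%) at an adjusted p under 0.1 and DESeq2 called 114 of the 13998 to which it gave an adjusted p (0.814%). Of the 34 genes, both called 0, as did limma with voom. At an unadjusted p under 0.05, edgeR placed 1 of the 34 lower in SCVS (Slc16a3), where 1.17% of all genes were, and 0 higher, where 1.93% were. Groups did not overlap in CPM for 1 of the 34 in the lower direction, again Slc16a3, against 0.182% of all genes, and for 0 in the higher direction, against 0.445%. The median log2 fold change of the 34 was -0.22, with 12 above and 22 below 0, and that of all genes was -0.03, with 7137 above and 7678 below. Without naive replicate 5 the median of the 34 was 0.10 and that of all genes was 0.04. In the fit of all 10 replicates the median standard error was 0.81 for the 34 genes and 1.42 for all genes. Of the 34, 22 (64.7%) had more than 3 counts in every replicate, against 38.1% of all genes. For 6 of the 34 (17.6%) the fold change exceeded its own standard error, as it did for 21.4% of all genes.

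**Figure D2:**
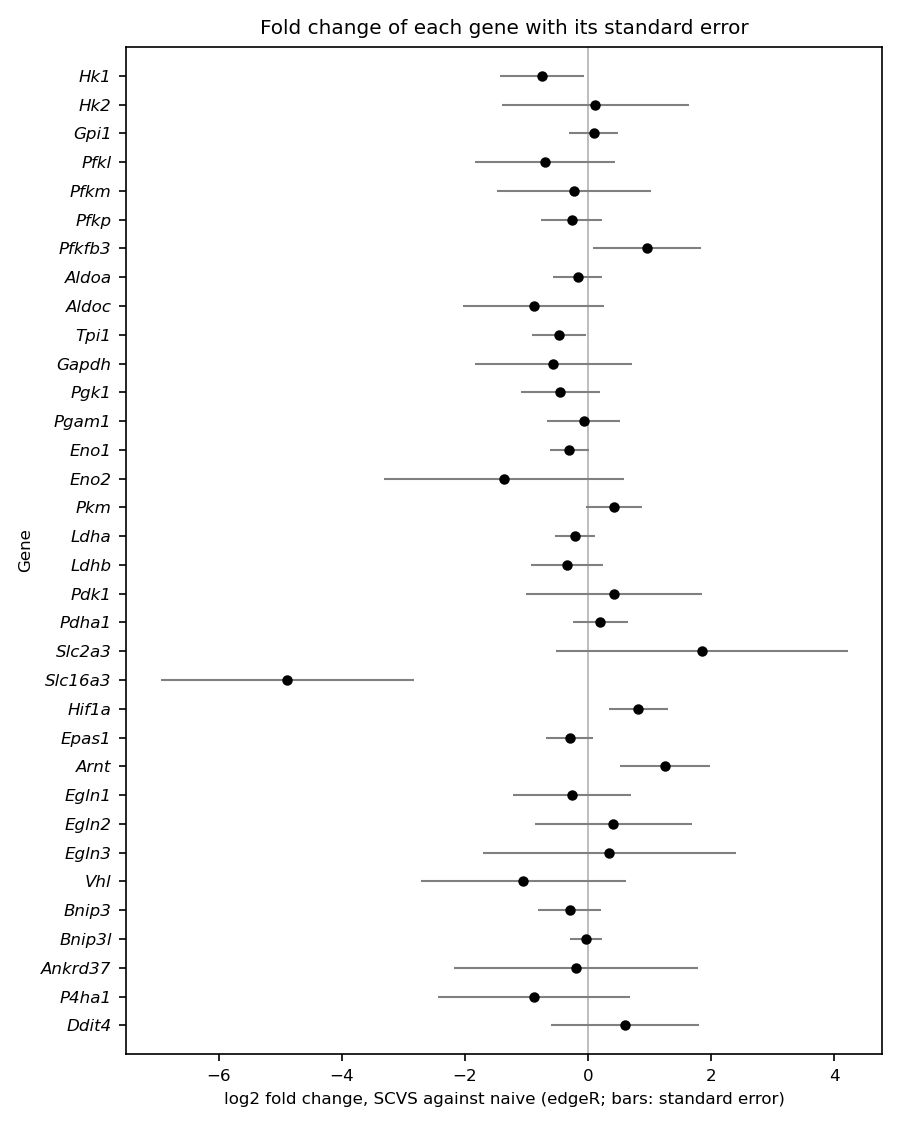
Log2 fold change of SCVS against naive from edgeR (points) with its standard error (bars) for the 34 genes; positive values are higher in SCVS. Slc16a3 lies farthest left at -4.89, and 6 of the 34 bars stay clear of 0, against 21.4% of all tested genes.

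Slc16a3 (ENSMUSG00000025161, chr11:120948484-120959000, + strand) encodes the transporter that exports lactate from glycolytic cells. Naive replicates 1 to 5 had 265, 235, 258, 202 and 37 counts of it, and SCVS replicates 1 to 5 had 33, 0, 0, 0 and 4. As CPM these were 25.4, 18.4, 18.5, 14.9 and 2.78 in naive replicates and 2.34, 0, 0, 0 and 0.401 in SCVS replicates. Every naive replicate lay above every SCVS replicate, but naive replicate 5 and SCVS replicate 1 were almost equal, and naive replicates 1 to 4 alone averaged 19.3 ± 4.42 CPM (SD, n = 4). The log2 fold change was -4.89 (SE 2.06, edgeR unadjusted p = 0.0357, adjusted p = 1.0), and DESeq2 gave -4.93 (unadjusted p = 0.00174, adjusted p = 0.175). Over the other tests, scalings and filters and the edgeR fits without 1 replicate, the adjusted p ran from 0.175 to 1.0. In an exact permutation test of mean CPM the two-sided p was 0.00794, the smallest that 5 against 5 replicates allow, and 1.0 after adjustment over all genes. Without SCVS replicate 1, the library with 33 of the 37 SCVS counts, the DESeq2 log2 fold change was -7.38 (adjusted p = 3.56e-04). That fit was added after the values had been seen, and DESeq2 without any 1 of the other 9 replicates gave adjusted p from 0.120 to 0.472.

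Slc16a3 shares 1292 bases of its locus with Csnk1d, a kinase gene, and the use of strand in counting was not stated. Csnk1d had 27, 302, 173, 1342 and 288 counts in naive replicates and 1003, 628, 664, 1660 and 495 in SCVS replicates (2.59 to 98.9 and 49.6 to 125 CPM). The part of reads from the shared stretch in the Slc16a3 difference was not tested. Marker levels of other cells were set beside it too. The 8 fibroblast markers summed to 872, 1642, 764, 484 and 55.5 CPM in naive replicates and 39.2, 91.8, 169, 183 and 1542 CPM in SCVS replicates, with medians of 764 and 169 CPM. Between 3 and 6 of the 8 markers were above 3 counts in naive and between 4 and 8 in SCVS replicates, and Pdgfra was at 0 in 4 libraries. SCVS replicate 5, with a fibroblast sum of 1542 CPM, had 4 counts of Slc16a3. The part of fibroblast RNA in the difference was not tested.

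The other transporter of the set, Slc2a3, encodes the high-affinity glucose transporter GLUT3. It was listed at 0, 8.85, 0, 7.07 and 0 CPM in naive and 0.7095, 56.4, 1.70, 4.68 and 0 CPM in SCVS replicates. It was detected above 3 counts in 2 naive and 4 SCVS replicates, and SCVS replicate 2 alone raised the SCVS mean. Slc2a1, the main glucose transporter of brain endothelium (GLUT1), was not among the 34 but in a list of other pathway genes. It had 665, 876, 1305, 373 and 85.7 CPM in naive and 40.4, 79.2, 192, 638 and 652 CPM in SCVS replicates, a log2 fold change of -1.05 (SE 0.83, edgeR adjusted p = 1.0). The SCVS values fell into a low trio and a high pair, and the high pair lay within the naive range.

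Aldolase and triose phosphate isomerase, which cleave fructose bisphosphate and interconvert the products, include the most abundant enzyme of the set. Per kilobase of exon, Aldoa led with a mean of 397 CPM per kb over all replicates, followed by Ldhb with 257, Pkm with 193, Aldoc with 127 and Ldha with 125. Without naive replicate 5, Aldoc averaged 81.7 and Ldha 129 CPM per kb, and in SCVS mice alone Aldoc averaged 90.3 and Ldha 118 CPM per kb. Aldoa was at 965, 824, 741, 811 and 2347 CPM in naive replicates and 1049.7, 955, 532, 1065 and 1635 CPM in SCVS replicates. Naive replicates 1 to 4 lay within 741 to 965 CPM and naive replicate 5 was far above them. The log2 fold change of Aldoa was -0.17 (SE 0.40, edgeR adjusted p = 1.0) but 0.29 without naive replicate 5 and 0.0036 without SCVS replicate 3. Tpi1 had the same shape. It was at 179, 203, 187, 194 and 665 CPM in naive replicates and 248, 150.2, 157, 211 and 294 CPM in SCVS replicates. Its log2 fold change turned from -0.47 (SE 0.44, edgeR adjusted p = 1.0) to 0.13 without naive replicate 5.

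Aldoc, the aldolase isozyme known from brain, was at 244, 4.78, 113, 564 and 1757 CPM in naive replicates and 45.4, 129, 62.5, 613 and 623 CPM in SCVS replicates. Its coefficient of variation, 133% in naive and 101% in SCVS mice, was the largest of the 8 members with the highest mean CPM, with a log2 fold change of -0.88 (SE 1.15, edgeR adjusted p = 1.0), or 0.34 without naive replicate 5. Per kb, Aldoc was 17.6, 0.487, 11.4, 37.0 and 38.7% of Aldoa and Aldoc together in naive replicates and 3.52, 10.2, 9.01, 32.7 and 24.3% in SCVS replicates. The neuronal and glial marker sum ranked the libraries in the order naive 5, SCVS 5, SCVS 4, naive 4 and naive 1 for its first 5 places, and Aldoc ranked these 5 in the same order. The sum was 3563, 1918, 1784, 946 and 523 CPM in them. The same 4 leading libraries were also the 4 highest for Eno2, the enolase known from neurons, and for Ldhb. In the other 5 libraries the orders of the sum and of Aldoc differed. Of these 5, SCVS replicate 2 had the lowest sum, 154 CPM, and the highest Aldoc, 129 CPM. Over all libraries the sum ran from 165 to 3563 CPM in naive and from 154 to 1918 CPM in SCVS replicates, with 3 to 8 of the 8 markers above 3 counts in both groups, and the neuronal marker Rbfox3 had 12, 192 and 184 counts in naive 3, naive 5 and SCVS 4 and at most 1 elsewhere. With the mean log2 level of these markers as a covariate, added after the values had been seen, the log2 fold change was -0.20 for Aldoc, 0.22 for Ldhb and 0.0058 for Aldoa. The part of neuronal and glial RNA in these levels was not tested.

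**Figure D3:**
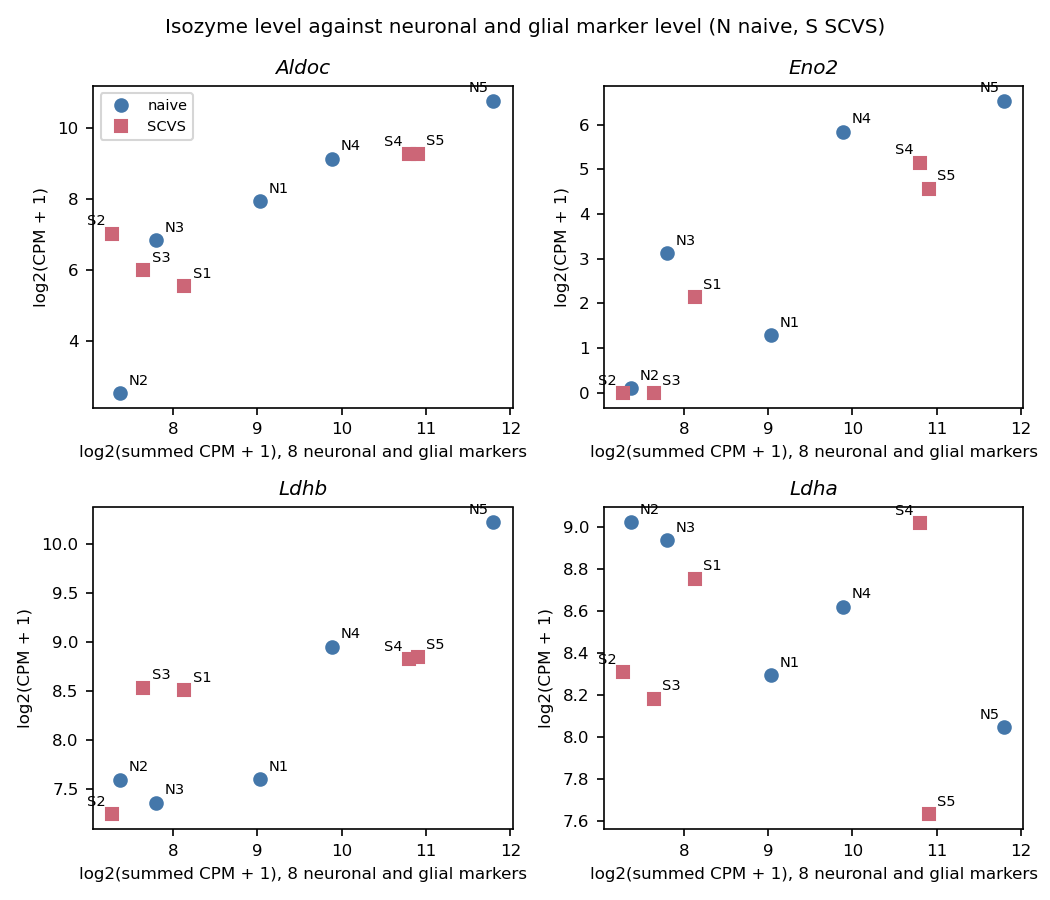
Log2(CPM + 1) of Aldoc, Eno2, Ldhb and Ldha (vertical) against log2(summed CPM + 1) of 8 neuronal and glial markers (horizontal) in 5 naive (N, circles) and 5 SCVS (S, squares) replicates. N5, S5, S4 and N4 lie at the right and are the 4 highest points for Aldoc, Eno2 and Ldhb, but not for Ldha.

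Eno2 was at 1.44, 0.0783, 7.73, 56.2 and 91.8 CPM in naive replicates and 3.41, 0, 0, 34.4 and 22.7 CPM in SCVS replicates. It was at most 10.9% of Eno1 and Eno2 together per kb in any library. Eno1, the ubiquitous enolase, was at 525, 345, 519, 618 and 858 CPM in naive replicates and 704, 522, 282, 498 and 401 CPM in SCVS replicates. These groups overlapped over most of their range, with a log2 fold change of -0.31 (SE 0.32, edgeR adjusted p = 1.0).

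Hexokinase traps glucose in the cell by phosphorylation. Hk1 was at 61.4, 7.75, 108, 95.5 and 46.2 CPM in naive replicates and 80.7, 41.4, 19.4, 25.6 and 31.0 CPM in SCVS replicates. The 3 libraries with the highest Hk1 were naive 3, naive 4 and SCVS 1, and the lowest was naive 2. Its log2 fold change was -0.75 (SE 0.69, edgeR adjusted p = 1.0). Hk2, the hypoxia-inducible isozyme, was at 0, 0.392, 0.0716, 1.62 and 5.70 CPM in naive and 0.213, 1.97, 1.14, 2.27 and 3.10 CPM in SCVS replicates. Hk1 was at least 85.0% of both per kb in every library.

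Phosphofructokinase commits sugar to glycolysis, and its liver, muscle and platelet subunits come from Pfkl, Pfkm and Pfkp. Pfkl was at 1.34, 89.2, 108, 121 and 131 CPM in naive and 45.6, 71.0, 0.162, 107 and 61.2 CPM in SCVS replicates. Pfkm was at 0.192, 21.6, 112, 50.8 and 109.7 CPM in naive and 76.5, 2.38, 3.57, 63.2 and 109 CPM in SCVS replicates. Pfkp was at 229, 89.3, 158, 43.7 and 120.1 CPM in naive and 108, 63.3, 89.7, 196 and 91.9 CPM in SCVS replicates. The subunit mix thus differed between libraries of 1 group: Pfkp was 98.5% of the sum per kb in naive replicate 1 and 88.8% in SCVS replicate 3, but between 9.51 and 31.7% in the other 8. Pfkfb3, whose product makes the activator of phosphofructokinase in endothelial cells, was at 27.5, 20.2, 30.1, 34.04 and 10.1 CPM in naive and 70.7, 39.6, 1.05, 85.5 and 47.8 CPM in SCVS replicates. In SCVS, 4 of 5 replicates lay above all naive replicates and replicate 3 lay below them, with a log2 fold change of 0.96 (SE 0.88, edgeR adjusted p = 1.0).

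**Figure D4:**
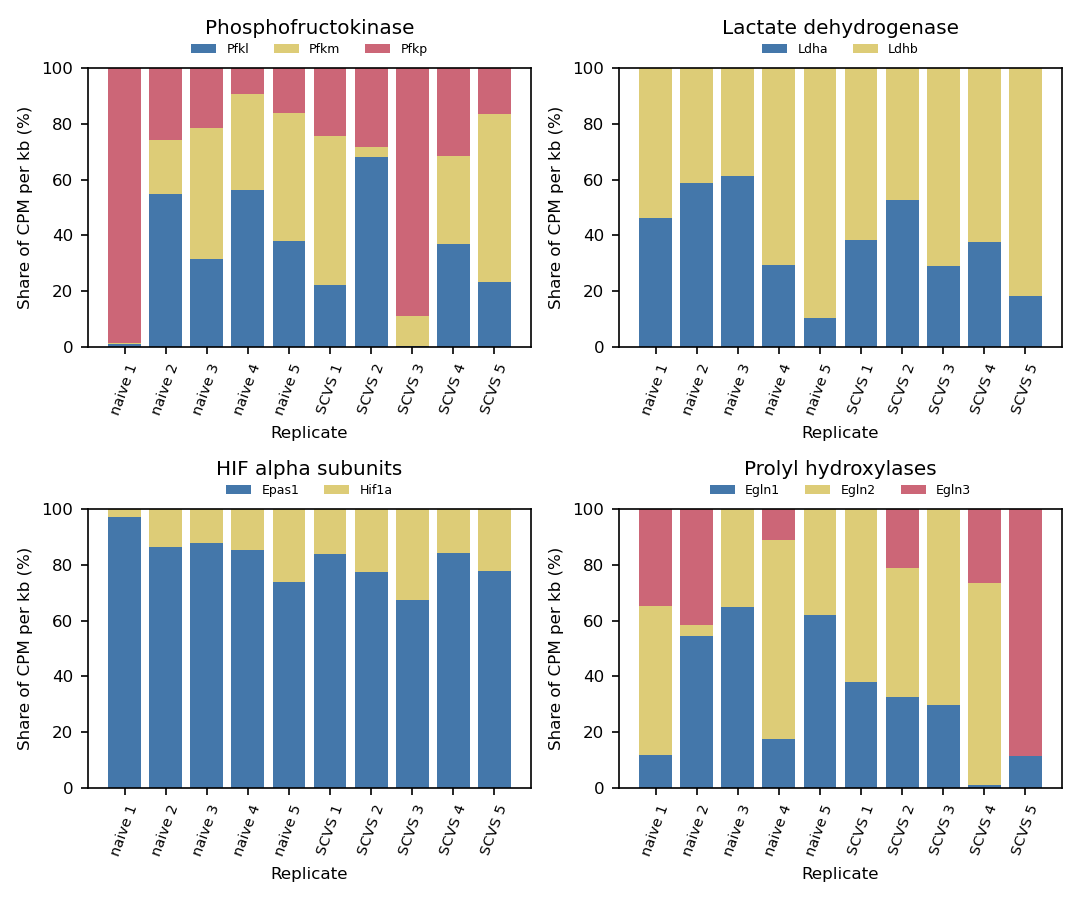
Share (percent) of each paralog in the summed CPM per kb of its family, in each of the 5 naive and 5 SCVS replicates, for phosphofructokinase, lactate dehydrogenase, HIF alpha subunits and prolyl hydroxylases. Pfkp fills 98.5% of its bar in naive replicate 1 and 88.8% in SCVS replicate 3, while Epas1 exceeds Hif1a in all 10 bars.

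Of the remaining enzymes, Gpi1, which isomerises glucose 6-phosphate, ran from 139 to 282 CPM in naive and from 102 to 408 CPM in SCVS replicates. Pgk1, the first ATP-yielding step, ran from 24.2 to 94.3 and from 8.87 to 52.9 CPM, and Pgam1, the mutase after it, from 30.6 to 119 and from 20.2 to 75.6 CPM. In all 3 the groups overlapped. Gapdh, an enzyme that glycolysis cannot do without and that is usually abundant, had only 7 to 116 counts per library (0.548 to 8.70 CPM in naive and 0.575 to 3.76 CPM in SCVS replicates), the second lowest per kb of the 34. The table lists 3 Gapdh copies with 46 counts in all, 15.3% of the reads on Gapdh and these copies. Bnip3l had 11.6% of such reads on 1 copy, and the other genes with listed copies had at most 3.46%. How reads that fit more than 1 copy were counted is not given in the sources used here. These shares therefore cannot show how many such reads were left out, for Gapdh or for the other genes. The deposited value of Gapdh is uncertain.

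Pkm encodes pyruvate kinase, the last step. It was at 318, 284, 278, 599 and 462 CPM in naive and 324, 554, 156, 607 and 1024 CPM in SCVS replicates. SCVS replicates held both the lowest and the highest value, and the log2 fold change was 0.42 (SE 0.45, edgeR adjusted p = 1.0). Summed over the 16 enzymes and regulators from Hk1 to Pkm, the level was 2761, 2203, 2690.3, 3527 and 7035 CPM in naive and 3177, 2726, 1464, 3845 and 4869 CPM in SCVS replicates. The means were 3643 ± 1954 CPM (SD, n = 5) in naive and 3216 ± 1269 CPM (SD, n = 5) in SCVS mice, and 2795 ± 547 CPM in naive mice without replicate 5 (SD, n = 4).

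Lactate dehydrogenase links pyruvate and lactate, and its 2 subunits were both abundant. Ldha, a well known HIF target, was at 313, 519, 489, 393 and 264 CPM in naive and 431, 316, 289.8, 518 and 198 CPM in SCVS replicates. The groups covered nearly the same range, with a log2 fold change of -0.21 (SE 0.32, edgeR adjusted p = 1.0). Ldhb, the subunit known from heart and brain, was at 193, 193, 164, 495 and 1197 CPM in naive and 365, 150.4, 370.1, 454 and 459.8 CPM in SCVS replicates. The log2 fold change of Ldhb was -0.34 (SE 0.58, edgeR adjusted p = 1.0) and 0.46 without naive replicate 5. Ldhb was 58.9 ± 21.3% of both per kb in naive (SD, n = 5) and 64.8 ± 12.6% in SCVS mice (SD, n = 5). Pdk1, whose product inhibits pyruvate dehydrogenase, ran from 0 to 52.2 CPM in naive and from 1.30 to 60.4 CPM in SCVS replicates. Pdha1, a subunit of pyruvate dehydrogenase, ran from 59.8 to 214 and from 61.1 to 208 CPM.

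The HIF subunits were led by Epas1 (HIF2A), the alpha subunit that is typical of endothelium. Epas1 was at 928, 653, 807, 700.3 and 217 CPM in naive and 743, 828, 528, 382 and 335 CPM in SCVS replicates. The lowest value was that of naive replicate 5, in which pan-endothelial markers were also lowest, and the log2 fold change was -0.30 (SE 0.39, edgeR adjusted p = 1.0). Hif1a, the alpha subunit found in most cells, was at 29.7, 116, 127, 136 and 85.8 CPM in naive and 160.5, 269.8, 282, 80.6 and 107 CPM in SCVS replicates. In SCVS, 3 of 5 replicates lay above all naive replicates, and the other 2 lay within the naive range. The naive mean was 98.9 ± 43.0 CPM (SD, n = 5) and the SCVS mean 180.1 ± 92.3 CPM (SD, n = 5), with a fitted log2 fold change of 0.82 (SE 0.48, edgeR unadjusted p = 0.114, adjusted p = 1.0). Arnt, the shared partner of both, was at 7.77, 34.5, 35.8, 13.7 and 8.85 CPM in naive and 97.5, 33.9, 52.7, 43.4 and 17.3 CPM in SCVS replicates. In SCVS, 3 of 5 replicates lay above all naive replicates, with a log2 fold change of 1.25 (SE 0.74, edgeR adjusted p = 1.0). The two-sided exact permutation p, not adjusted over genes, was 0.0635 for Arnt and 0.151 for Hif1a. Per kb, Hif1a was 2.81, 13.8, 12.4, 14.9 and 26.2% of Hif1a and Epas1 in naive and 16.3, 22.7, 32.5, 15.95 and 22.4% in SCVS replicates, so Epas1 exceeded Hif1a in every library.

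**Figure D5:**
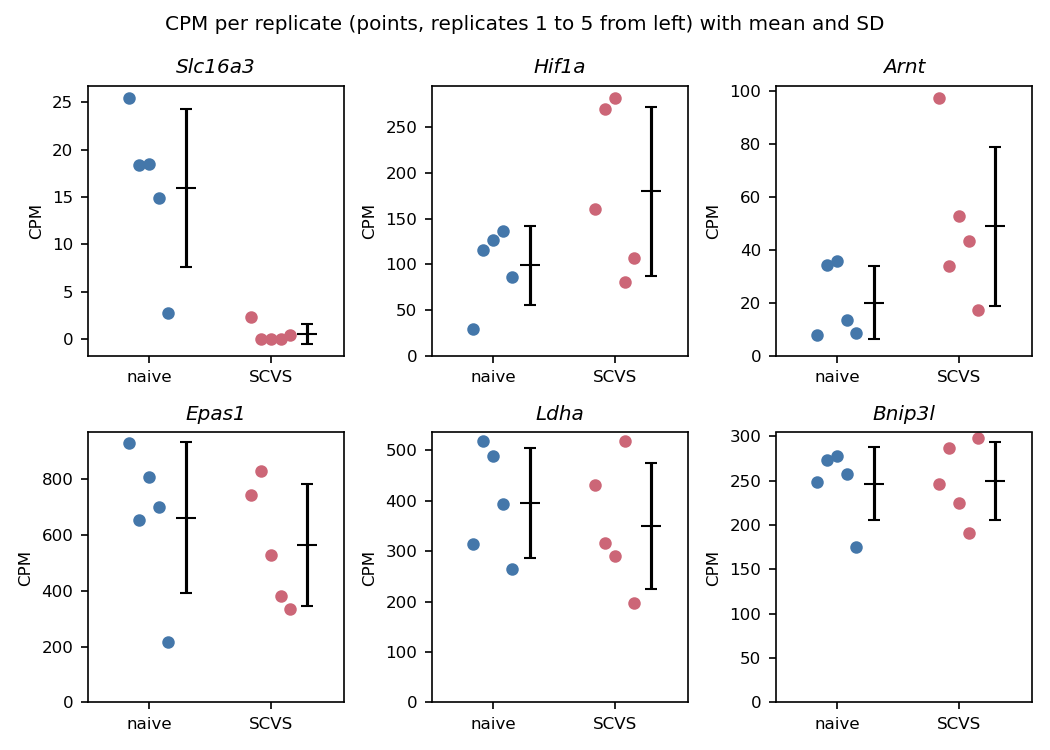
CPM of Slc16a3, Hif1a, Arnt, Epas1, Ldha and Bnip3l in each replicate (points, replicates 1 to 5 from left to right) of naive (blue) and SCVS (red) mice, with mean and SD beside them. Slc16a3 is the 1 panel of 6 in which the groups do not overlap, and Bnip3l has the narrowest relative spread.

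Proteins that degrade HIF-alpha were low and uneven. Egln1 (PHD2, the main oxygen sensor) was at 15.1, 34.8, 58.1, 27.4 and 23.7 CPM in naive and 46.3, 73.9, 17.9, 1.44 and 4.81 CPM in SCVS replicates. Egln2 (PHD1) was at 53.2, 1.96, 24.8, 87.6 and 11.6 CPM in naive and 60.4, 83.4, 33.3, 73.2 and 0 CPM in SCVS replicates. Egln3 (PHD3), itself a HIF target, was at 32.9, 20.1, 0.143, 13.3 and 0 CPM in naive and 0, 36.1, 0, 25.6 and 27.8 CPM in SCVS replicates. Per kb, Egln1 led the trio in naive replicates 2, 3 and 5, Egln3 led in SCVS replicate 5, and Egln2 led in the remaining libraries. Vhl, the ubiquitin ligase subunit that recognises hydroxylated HIF-alpha, ran from 0.0737 to 121 CPM in naive and from 0 to 55.0 CPM in SCVS replicates, with at most 3 counts in 1 naive and 2 SCVS replicates.

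Among the 5 hypoxia-induced targets, the mitophagy receptors Bnip3l and Bnip3 were the most abundant per kb, with means of 64.3 and 61.1 CPM per kb. Bnip3l was at 249, 274, 277, 258 and 176 CPM in naive and 246, 287, 225, 191 and 298 CPM in SCVS replicates. It had the smallest relative spread of the 34 genes, with a coefficient of variation of 16.8% in naive and 17.7% in SCVS mice, and group means of 247 ± 41.4 and 249 ± 44.1 CPM (SD, n = 5 each). Bnip3 was at 77.5, 83.8, 189, 127 and 283 CPM in naive and 103, 50.1, 236, 110.1 and 124 CPM in SCVS replicates, with overlapping groups. P4ha1, a collagen prolyl hydroxylase, ran from 3.08 to 128 CPM in naive and from 0 to 76.6 CPM in SCVS replicates. Ankrd37 ran from 0 to 24.1 and from 0 to 32.8 CPM, and the mTOR inhibitor Ddit4 (REDD1) from 0.6002 to 10.1 and from 3.16 to 18.2 CPM. Summed over these 5 targets, naive mice had 479 ± 71.1 CPM (SD, n = 5) and SCVS mice 431 ± 56.0 CPM (SD, n = 5), and the difference was smaller than either SD.

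Of 64 further genes of these pathways, 49 were tested. EdgeR and DESeq2 each called 0 of these 49 at an adjusted p under 0.1, and edgeR placed 1 higher and 0 lower at an unadjusted p under 0.05. Their median log2 fold change was 0.03, with 25 above and 24 below 0. The 1 gene was Hk3, a hexokinase known from blood cells, with 0 counts in all 5 naive replicates and 50, 0, 0, 26 and 110 counts in SCVS replicates. Hk3 passed the filter on low counts only through SCVS replicates 1, 4 and 5. A gene that passes in this way can only come out higher in SCVS, so its p is no support for a difference. The SCVS mean of Hk3 was at least 13.97-fold higher than the naive floor of 3 counts per library (edgeR unadjusted p = 0.0128, adjusted p = 0.964). Without SCVS replicate 5 this bound was 5.82-fold. The sort was for CD45- cells, and 8 myeloid markers summed to 3.26 to 564 CPM in naive and 133 to 4150 CPM in SCVS replicates, with 1 to 6 and 2 to 7 of the 8 above 3 counts. Among them Ptprc, the gene of CD45 itself, had 27, 113 and 404 counts in SCVS replicates 1, 4 and 5 and at most 1 elsewhere. SCVS replicates 1, 4 and 5 were also the only libraries with counts of Hk3. None of the other myeloid markers was confined to these libraries. In SCVS replicate 5, Cd68, Adgre1, Itgam and Cx3cr1 had 0 counts and Mrc1 had 2, while Lyz2 had 1568 and Csf1r 206. Lyz2 also had 1542 counts in SCVS replicate 2, a library with 0 counts of Hk3. Naive replicate 4 and SCVS replicate 3, with myeloid marker sums of 564 and 765 CPM, had 0 counts of Hk3. The part of leukocyte RNA in the Hk3 difference was not tested. Cited2, a HIF-induced inhibitor of HIF activity, was at 56.1, 7.05, 0.143, 50.9 and 19.1 CPM in naive and 74.0, 197, 95.4, 52.9 and 59.99 CPM in SCVS replicates, and its 4 highest values were SCVS libraries (log2 fold change 1.76, SE 1.01, edgeR adjusted p = 1.0). Tigar, which lowers the phosphofructokinase activator, was at 0, 0.470, 0, 0 and 4.05 CPM in naive and 22.5, 4.44, 0.811, 16.4 and 0 CPM in SCVS replicates, with overlapping groups. Higd1a, a hypoxia-induced mitochondrial protein, was at 93.0, 67.5, 214, 108.9 and 148 CPM in naive and 41.2, 55.5, 130.2, 49.3 and 138 CPM in SCVS replicates, again with overlapping groups.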

How the data were processed

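The authors amplified RNA from sorted meningeal LECs with a whole-transcriptome kit and deposited raw counts per gene and replicate, with no normalization. The submitters' processing notes list cutadapt 1.9.1, HISAT2 2.0.1, HTSeq 0.6.1, DESeq2 and GRCm38, whereas the methods name mm9; the use of strand is not given in the sources used here. Total counts ran from 9984743 to 14094155. The mice came from more than 1 cohort, and the cohort of each replicate is not given in the sources used here, so no within-cohort values were computed.

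The filter kept genes that exceeded 5 counts in 3 or more of the 10 replicates. They were tested with edgeR 4.0.16 (quasi-likelihood, TMM, R 4.3.3), Benjamini-Hochberg adjustment over all 14815 genes, and an adjusted p under 0.1 was called. The standard error is the fold change over the square root of F. Alternatives were DESeq2 1.42.0, limma 3.58.1 with voom, other scalings and filters, a replicate block, a covariate for the number of genes detected, and leaving out each replicate. Those added after seeing the data are named as such. CPM used column totals, and CPM per kb used GENCODE M1 exon lengths. Gene coordinates and promoter windows are those of RefSeq (GRCm38.p6). Aldoa was listed under 2 identifiers, of which the second, with 21 counts in all, was left out. The fits were tested on simulated data. Python 3.11.15 with NumPy 2.4.6, SciPy 1.17.1, pandas 2.3.3 and Matplotlib 3.10.9 was used.

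The 34 members, the list of other pathway genes and the marker lists were chosen with earlier results of these data known. Per-replicate values are given for the 8 members with the highest mean CPM, the 4 of smallest p in either direction, any with groups that do not overlap, and the paralog families, and for the 3 other pathway genes of smallest p in either direction, 1 of which is not reported here.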

Additional observations from a re-analysis of the deposited data

Results flagged for a closer look

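Dixon's test was applied to each of the 34 genes in each group of 5 replicates, 68 groups in all, and marked 8 values that lay far from the rest of their group. For normally distributed values, chance marks about 1 in 20 groups. That rate need not hold for skewed CPM such as those of Slc2a3. Of the 8 values, 6 came from naive replicate 5. There, Aldoa was at 2347 CPM (next highest naive value 965), Tpi1 at 665 CPM (next 203), Pgam1 at 119 CPM (next 54.1), Gapdh at 8.70 CPM (next 0.859) and Hk2 at 5.70 CPM (next 1.62). In the same library Bnip3l was at 176 CPM, the lowest naive value, below the next at 249 CPM. This library also had the lowest pan-endothelial marker sum, 595 CPM, and the highest neuronal and glial marker sum, 3563 CPM, and the part of cell composition in these 6 values was not tested.

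The other two came from SCVS replicates. Slc2a3 was at 56.4 CPM in SCVS replicate 2, with the next highest SCVS value at 4.68 CPM. Slc16a3 was at 2.34 CPM in SCVS replicate 1, with the next highest SCVS value at 0.401 CPM.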

How the results depend on the processing

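The limits are the spread between replicates and the number of 5 pools per group: the median standard error of the log2 fold change was 0.81 for the 34 genes. Over all genes, DESeq2 called 114 and limma with voom 3, against 0 in edgeR, and every other planned setting gave 0. DESeq2 without SCVS replicate 1, added after seeing the data, called 1 of the 34 genes, Slc16a3 (log2 fold change -7.38), and each planned setting called 0. Leaving out 1 replicate at a time, the count of the 34 at an unadjusted p under 0.05 ran from 0 to 1: it was 0 without naive replicate 1, 2 or 3 or SCVS replicate 2, 3, 4 or 5, and also 0 without naive replicates 1 and 5 together. The edgeR fold change of Slc16a3 stayed below 0 in these fits, between -7.22 and -4.56, and was -4.97 without both naive libraries.

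The signs that turned were those of small or single-library differences. Leaving out 1 replicate at a time gave -0.62 to 0.13 for Tpi1, -0.39 to 0.29 for Aldoa, -1.37 to 0.34 for Aldoc and -0.55 to 0.46 for Ldhb. Without naive replicates 1 and 5, Tpi1 was at 0.12, Aldoa at 0.39, Aldoc at 0.39 and Ldhb at 0.36. DESeq2 without naive replicate 5 gave 0.15 for Tpi1, 0.32 for Aldoa, 0.38 for Aldoc and 0.48 for Ldhb, and without SCVS replicate 5 it gave -0.020 for Pkm. Limma with voom gave 0.10 for Aldoa, 0.60 for Aldoc and 0.016 for Ldhb. A covariate for the number of genes detected gave -0.12 for Pkm, and the neuronal and glial score as a covariate 0.0058 for Aldoa and 0.22 for Ldhb. Aldoa was at 0.0036 without SCVS replicate 3. The cause was not tested.

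Same-numbered replicates were pools of different animals and were not treated as pairs in the main fit. Their deviations from the group means correlated at -0.010 to 0.137. With a replicate block, edgeR called 0 genes at the adjusted threshold and 266 at an unadjusted p under 0.05, against 460 without it. The block gave -7.55 for Slc16a3 and turned Ldhb to 0.0063. In 4 of 5 cases a naive replicate correlated best with the SCVS replicate of its own number. For naive replicate 5 this correlation was 0.137, against at most 0.023 with an SCVS replicate of another number. Whether same-numbered replicates shared a batch was not tested.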
